A study of Caenorhabditis elegans with 2 samples.

Results

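The nuclear hormone receptor genes of Caenorhabditis elegans were examined as possible sites of occupancy by NHR-237, itself a member of the family. They were taken as the protein-coding genes of the WBcel235 annotation whose symbol is nhr- followed by a number, which gave 269 of 19973 genes on the nuclear chromosomes, nhr-237 included. Nuclear receptors with other names, such as daf-12 and sex-1, were kept apart. The material was whole embryos of mixed stage and mixed sex from strain OP228, which carries the unc-119(ed3) III allele and the transgene insertion wgIs228, from which NHR-237 is made with a green fluorescent tag (eGFP). The samples formed 1 group of 2 biological replicates, and no embryos without the tag were analysed here. The labels do not name the promoter of the transgene or the cells that express it, and say only that the age is unknown. In chromatin from whole embryos, a site occupied strongly in few cells and a site occupied weakly in many cannot be told apart.

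Nuclear hormone receptors are transcription factors with a zinc-finger domain that binds DNA and, in most members, a domain that can bind a small lipophilic ligand. Nematodes hold a greatly expanded family, most of which descends from an ancestor related to the vertebrate receptor HNF4. A small remainder corresponds to receptor classes shared with insects and vertebrates, with roles in molting, epidermal and gonadal development. Several of the HNF4-related receptors are known regulators of fat, sterol and nutrient metabolism in the intestine, and many of the rest have no assigned role.

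A gene was given a peak when the peak's summit fell in its promoter window, which reached 500 bp before and 200 bp past any annotated transcript start. Signal values are those the authors' caller gave each peak, and since they are not scaled between lists they were ranked only within a list. The irreproducible discovery rate (IDR) list, which the authors derived from the replicate and pooled lists, held 1626 peaks. The replicate 1 list held 10872 regions, and the replicate 2 and pooled lists held 30000 each. The replicate and pooled lists were deposited as peaks together with background, as input for the IDR step. A summit of the pooled list was called replicated here when each replicate list had a summit within 100 bp of it, which held for 4856 summits. Read depth is unknown, and intervals are 95% Clopper-Pearson intervals that cover counting error only. Genes, not embryo preparations, are the units of every share, and neighbouring genes are not independent of each other.

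Receptor genes carried IDR peaks at 13 of 269 promoters, or 4.83% (interval 2.60 to 8.12), against a background of 6.7% over all protein-coding genes. The 13 were nhr-1, nhr-256, nhr-47, nhr-34, nhr-142, nhr-56, nhr-228, nhr-119, nhr-57, nhr-32, nhr-154, nhr-49 and nhr-104. A replicated summit lay in the window of 34 of 269 receptor genes, or 12.6% (8.91 to 17.2), and the background of all protein-coding genes was 12.7%. Both intervals hold the background. That reading depends on how summits shared by several genes are treated. With only summits that lie in the window of a single gene, 32 of 269 receptor genes, or 11.9% (8.28 to 16.4), had a replicated summit, above the 7.65% of all protein-coding genes. That restriction cut the receptor genes from 34 to 32 and all genes from 2534 to 1528, with every gene kept in the denominator. How far the overlap of windows between neighbouring genes enters this excess was not tested. Under the same restriction 11 of 269, or 4.09% (2.06 to 7.2), had an IDR summit, and the interval holds the 3.34% of all genes. With each IDR summit given to the nearest 5′ end within 2000 bp, the share was 19 of 269, or 7.06% (4.31 to 10.8), against 6.62% of all genes. An IDR summit in or within 2000 bp of the gene but outside its windows was present at 16 of 269, or 5.95% (3.44 to 9.48), against 8.01% of all genes. No list had a summit in the window of 141 receptor genes, or 52.4%. The other 128, or 47.6%, had a summit in at least 1 list, against 41.4% of all protein-coding genes.

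The gene of the tagged factor was among those with no peak. The nhr-237 gene (WBGene00021610) lies on the minus strand of chromosome V at 1625189 to 1626820, with 4 other receptor genes whose midpoints lay within 10 kb of its own. No list held a region within 3000 bp of it. The nearest region of the pooled list was 15454 bp away with a signal of 19.6 and a rank of 29732, and the nearest IDR peak, 116652 bp away, was the one at nhr-256.

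The sequences at 6 of the receptor summits are shown because they include every receptor peak with GCGTCTC, one with GAGAGA alone and one with no searched motif. Each is the 101 bp centred on the IDR summit, read 5′ to 3′ on the strand of the receptor gene from the RefSeq copy of WBcel235 (ce11). Capitals mark the motif GCGTCTC, the motif GAGAGA, the motif TGATAA or the reverse complement of one of them. The motifs searched on either strand were AGGTCA, the core site of many nuclear receptors, and TGATAA, a form of the GATA factor site. The other motifs, with no factor assigned here, were GAGAGA, besides it GCGTCTC, and lastly CGAGACC.
nhr-1, chrX:17513659-17513759, plus strand: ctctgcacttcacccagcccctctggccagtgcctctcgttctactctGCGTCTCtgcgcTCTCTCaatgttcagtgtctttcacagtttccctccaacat
nhr-142, chrV:5790989-5791089, minus strand: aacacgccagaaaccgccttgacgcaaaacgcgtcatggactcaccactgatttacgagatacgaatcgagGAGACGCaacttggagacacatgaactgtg
nhr-119, chrII:2800912-2801012, minus strand: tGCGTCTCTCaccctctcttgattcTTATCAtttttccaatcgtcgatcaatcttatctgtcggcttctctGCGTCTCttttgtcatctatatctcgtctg
nhr-57, chrV:4131655-4131755, plus strand: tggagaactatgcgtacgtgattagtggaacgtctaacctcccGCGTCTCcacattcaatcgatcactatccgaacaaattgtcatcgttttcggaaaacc
nhr-34, chrIV:9667231-9667331, minus strand: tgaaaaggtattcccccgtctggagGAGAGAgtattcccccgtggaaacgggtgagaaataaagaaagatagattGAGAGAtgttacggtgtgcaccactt
nhr-256, chrV:1743620-1743720, plus strand: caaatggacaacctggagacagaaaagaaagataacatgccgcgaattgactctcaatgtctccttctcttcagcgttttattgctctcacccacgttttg

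GCGTCTC, in either orientation, lay within 50 bp of 4 of the 13 receptor summits, or 30.8%, and of 11.3% of the 1013 promoter summits of the IDR list. The genes were nhr-1, nhr-142, nhr-119 and nhr-57. GAGAGA lay at 7 of the 13, or 53.8%, against 19.8% of promoter summits and 28.1% of all 1611 nuclear IDR summits. At nhr-119 a copy of GCGTCTC and the reverse complement of GAGAGA overlap, so these are not separate matches there. TGATAA lay at 2 of 13, nhr-104 and nhr-119, against 2.96% of promoter summits. AGGTCA and CGAGACC were at none of the 13, while AGGTCA was at 1.58% and CGAGACC at 10.1% of promoter summits. With 13 summits these shares are a description and were not tested.

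The receptor summits differed widely in composition and nearly all of their sequence occurred once in the genome. GC content of the 101 bp was between 32.7% at nhr-154 and 59.4% at nhr-47, with a median of 45.5%, and the median over promoter summits of the IDR list was 46.5%. In 12 of the 13 peaks every 31-base word was unique in the genome, and in the other, at nhr-56, 98.9% of words were. By the same measure, 975 of the 1013 promoter peaks had at least 95% unique words.

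The IDR list ran between signals of 72.6 and 812 with a median of 106, and 4 of the 13 receptor peaks were above that median. The nhr-1 peak on chromosome X, at 17513511 to 17513906 and 354 bp upstream of a transcript start, had a signal of 68.4 in replicate 1, 81.8 in replicate 2 and 148 in the pooled list. These were the highest values at any of the 34 receptor genes in each list. Its ranks were 453 in replicate 1, 362 in replicate 2 and 396 in the pooled list, and 2 weaker replicated summits also lay in its windows.

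The next receptor peaks on chromosome V were at nhr-256 and nhr-47. The nhr-256 peak, at 1743472 to 1743867 and 101 bp upstream, had a signal of 55.5 in replicate 1, 69.7 in replicate 2 and 138 in the pooled list. The nhr-47 peak, at 5505063 to 5505458, had 65.7 in replicate 1, 70.0 in replicate 2 and 137 in the pooled list. In replicate 1 nhr-47 was above nhr-256 and in replicate 2 they were within 1 unit of each other, so the lists did not fix their order. The nhr-47 summit lay 8 bp past the transcript start of the receptor and also in the window of dnj-19, a DnaJ co-chaperone gene transcribed the other way, so it cannot be assigned to the receptor alone.

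The peaks at nhr-34, nhr-142, nhr-56 and nhr-228 followed in pooled signal. The nhr-34 peak on chromosome IV, 200 bp upstream, had signals of 42.8 in replicate 1, 68.97 in replicate 2 and 110 in the pooled list. The nhr-142 peak, 486 bp upstream, had 40.6 in replicate 1, 64.8 in replicate 2 and 104 in the pooled list. It was close to the edge of the window, the matched replicate summits fell outside it, and it also lay in the window of F44E7.9. The nhr-56 peak, 11 bp downstream of a transcript start, had 38.9 in replicate 1, 54.1 in replicate 2 and 99.8 in the pooled list. The nhr-228 peak, 16 bp upstream, had 37.1 in replicate 1, 54.7 in replicate 2 and 91.9 in the pooled list. In replicate 2 the last of these was slightly above nhr-56, so the replicates did not give them 1 order.

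The other 6 IDR receptor peaks had pooled signals between 83.5 and 90.7 and changed order between replicates. The nhr-119 peak on chromosome II, 362 bp upstream, had 47.8 in replicate 1, 41.9 in replicate 2 and 90.7 in the pooled list. The nhr-32 peak on chromosome X, 335 bp upstream, had 33.9 in replicate 1, 52.7 in replicate 2 and 87.6 in the pooled list. The nhr-104 peak on chromosome IV, 49 bp downstream, had 48.1 in replicate 1, 37.0 in replicate 2 and 83.5 in the pooled list. It was the weakest receptor peak in the IDR list, and nhr-58, at a pooled signal of 70.7, had the strongest replicated summit outside that list.

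Among the IDR peaks, nhr-49 and nhr-154 had a −log10 q under 1 in 1 replicate each. At nhr-49, an HNF4-related receptor that controls fatty acid desaturation and beta-oxidation, the peak on chromosome I at 9869039 to 9869434 had a signal of 65.1 in replicate 1, 11.7 in replicate 2 and 85.7 in the pooled list. Its rank was 500 of 10872 in replicate 1 and 26141 of 30000 in replicate 2, where the −log10 q was 0.026. The matched summit in replicate 2 was thus near the bottom of its list, and a stronger replicate 2 summit in another window of the gene, 54 bp downstream of a transcript start, had 19.5. At nhr-154 on chromosome V the signal was 27.6 in replicate 1, with a −log10 q of 0.63, 57.9 in replicate 2 and 86.4 in the pooled list. Each of the other 11 IDR receptor peaks had a −log10 q of at least 1 in both replicates.

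**Figure D1:**
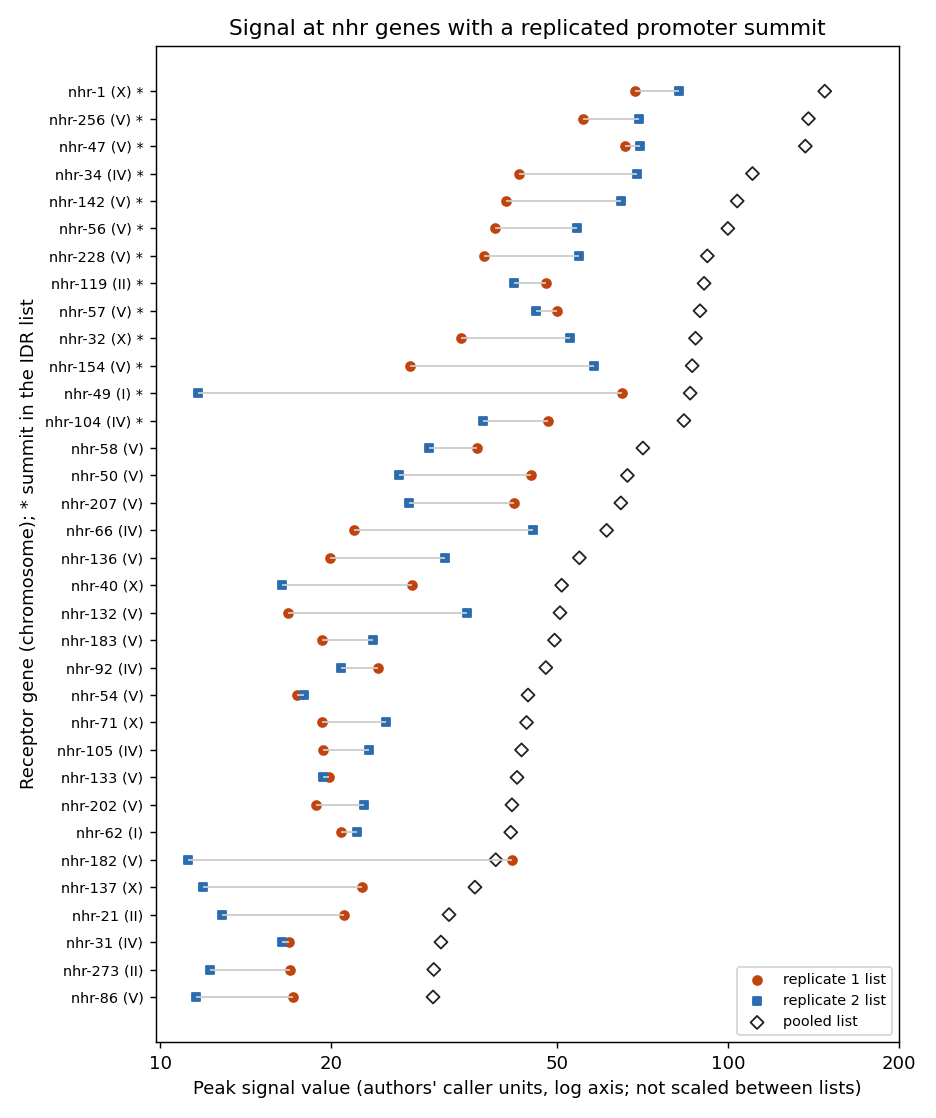
Signal value (horizontal log axis) at the 34 receptor genes with a replicated promoter summit, as circles for replicate 1, squares for replicate 2 and diamonds for the pooled list, with grey lines joining the replicates. The gene nhr-1 is highest in all 3 lists, and the long lines at nhr-49 and nhr-182 mark signals of 65.1 and 41.6 in replicate 1 beside 11.7 and 11.2 in replicate 2. Those are the matched summits; replicate 2 also had a stronger summit in the windows of each, of 19.5 at nhr-49 and 28.6 at nhr-182.

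The 21 receptor genes with a replicated summit but no IDR summit had pooled signals between 30.2 and 70.7. None of the 21 had a −log10 q of at least 1 in both replicates, and with that added requirement the count over all receptor genes was 11 of 269, or 4.09%, against 6.19% of all genes. The highest were nhr-58 (70.7), nhr-50 (66.4), nhr-207 (64.7), nhr-66 (61.1), nhr-136 (54.7), nhr-40 (50.9) and nhr-132 (50.5). After them in pooled signal came nhr-183 (49.4), nhr-92 (47.7), nhr-54 (44.4), nhr-71 (44.1), nhr-105 (43.2), nhr-133 (42.5), nhr-202 (41.6) and nhr-62 (41.4). The other 6, nhr-182, nhr-137, nhr-21, nhr-31, nhr-273 and nhr-86, had pooled signals between 30.2 and 39.0. In replicate 1 the signals of all 21 were between 16.8 and 44.9, against 27.6 to 68.4 at the 13 IDR genes, so the ranges overlapped. In replicate 2 the 21 had 11.2 to 45.3 and the 13 had 11.7 to 81.8, and the overlap there included nhr-49. Across the 34 genes the replicate signals had a Spearman's rho of 0.528, and across all 4856 replicated summits it was 0.70, both as descriptions over peaks of the same libraries.

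Grouped by known role, replicated summits were at receptors of the metabolic, stress and developmental lists, and at none of the conserved classes. Of 10 receptors of classes shared with other animals, 0 had an IDR or replicated summit. These were nhr-6, nhr-8, nhr-23, nhr-25, nhr-41, nhr-48, nhr-67, nhr-85, nhr-91 and nhr-111. Among them, nhr-23 and nhr-25, which drive molting and epidermal development, differed: nhr-23 had a pooled-list summit of signal 32.0 and nhr-25 had none in any list. At nhr-67, a regulator of anchor cell fate, and at nhr-6, needed for the spermatheca, no list had a summit. With a background of 12.7%, a count of 0 in a list of 10 does not separate it from other genes.

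Of 11 receptors with known roles in lipid and nutrient metabolism, nhr-49, nhr-66 and nhr-62 had a replicated summit, and only nhr-49 had an IDR summit, where the shares of all genes were 12.7% replicated and 6.7% IDR. The nhr-66 gene, whose product partners with NHR-49 in sphingolipid metabolism, had 21.9 in replicate 1, 45.3 in replicate 2 and 61.1 in the pooled list, 89 bp upstream. The nhr-62 gene, needed for the longer life of animals under dietary restriction, had 20.8 in replicate 1, 22.1 in replicate 2 and 41.4 in the pooled list. A pooled-list summit without a replicated one was present at nhr-13 (27.9), nhr-64 (35.8), nhr-68 (32.4), nhr-80 (28.2) and nhr-114 (24.3). At nhr-8, nhr-10 and nhr-69 no list had one. Replicate 1 held a summit at none of those 8 genes.

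Of 8 receptors with known developmental roles, only nhr-40, which acts in body wall muscle development, had a replicated summit, with 27.8 in replicate 1, 16.4 in replicate 2 and 50.9 in the pooled list. Of 5 receptors tied to stress and pathogen responses, nhr-57, nhr-49 and nhr-86 had one. The share of all genes was 12.7%, and since the lists were chosen with earlier results known, nothing is read from these counts. The nhr-57 gene, a target of the hypoxia factor HIF-1, had 49.97 in replicate 1, 45.9 in replicate 2 and 89.2 in the pooled list, 184 bp upstream. At nhr-86, whose product senses a bacterial metabolite, the signals were 17.1, 11.5 and 30.2 in replicate 1, replicate 2 and the pooled list, and its pooled rank was 10776 of 30000. These 4 lists share members: nhr-6, nhr-8, nhr-23, nhr-25, nhr-49, nhr-67 and nhr-85 each stand in more than 1.

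Nuclear receptor genes with other symbols, and genes that make receptor ligands or cofactors, had no IDR summit, against 6.7% of all protein-coding genes. Both lists are short, and nothing is read from their counts. Of daf-12, fax-1, odr-7, sex-1 and unc-55, only daf-12, the receptor of dafachronic acids, had a summit in any list, with 14.1 in replicate 2. Of 8 genes for ligand synthesis and cofactors, 1 had a replicated summit, where the share of all genes was 12.7%. It was din-1, which encodes a corepressor of DAF-12, with 30.6 in replicate 1, 39.95 in replicate 2 and 64.5 in the pooled list. The Mediator subunit gene mdt-15, whose product is the coactivator of NHR-49, and the dafachronic acid synthesis genes daf-9, daf-36 and dhs-16 had no summit in any list.

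Chromosome V held 167 of the 269 receptor genes, or 62.1% of the family, and the comparison of that chromosome with the rest asked whether its large block of receptor genes was occupied differently. An IDR summit lay at 7 of 167 receptor genes on V, or 4.19% (1.70 to 8.45), and at 6 of 102 on the other chromosomes, or 5.88% (2.19 to 12.4). The backgrounds were 4.08% of protein-coding genes on V and 7.57% of those elsewhere. The difference between the receptor shares, −1.69 percentage points, had a 95% Newcombe interval of −8.40 to 3.57 points. Replicated summits lay at 18 of 167, or 10.8% (6.51 to 16.5), on V, and at 16 of 102, or 15.7% (9.24 to 24.2), elsewhere, over backgrounds of 8.63% on V and 14% elsewhere. The difference was −4.91 points (−14 to 3.16). Both intervals hold 0, and with shared summits counted each receptor interval holds the background of the same chromosomes. With only replicated summits in a single window, the share on V was 9.58% (5.58 to 15.1), above a background of 5.25%. Elsewhere it was 15.7% (9.24 to 24.2), above 8.45%. For IDR summits in a single window it was 2.99% (0.979 to 6.85) on V and 5.88% (2.19 to 12.4) elsewhere. Those intervals hold their backgrounds of 1.92% and 3.81%.

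By chromosome, IDR summits were at 7 of 167 receptor genes on V, 2 of 33 on IV, 2 of 23 on X, 1 of 23 on I, 1 of 15 on II and 0 of 8 on III. Over all protein-coding genes the shares were 4.08% on V, 6.19% on IV, 4.03% on X, 10.7% on I, 6.61% on II and 10.8% on III. The receptor genes made up 3.34% of the protein-coding genes of V and at most 1.01% of those of any other chromosome. The median signal over receptor genes with an IDR summit was 99.8 on V and 89.1 elsewhere, against 110 over all genes with an IDR summit.

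**Figure D2:**
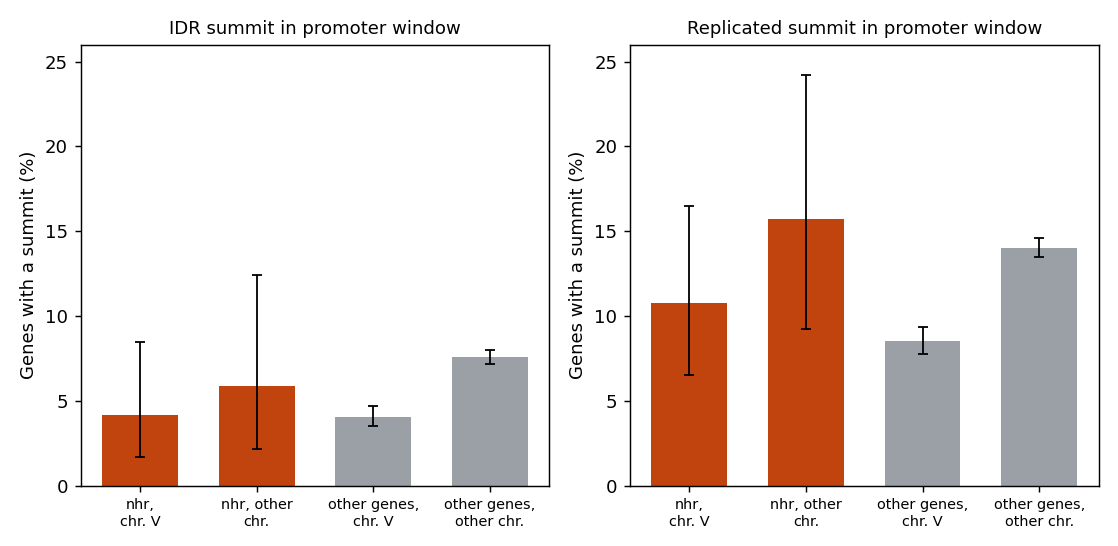
Percentage of genes with an IDR summit (left) or a replicated summit (right) in the promoter window, for receptor genes on chromosome V and on other chromosomes (dark orange) and for the other protein-coding genes of the same chromosomes (grey). Bars are shares and lines are 95% Clopper-Pearson intervals; the receptor intervals, such as 1.70 to 8.45 on V, span the grey bars of the same chromosomes.

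Receptor genes on V were mostly on the chromosome arms, where promoter peaks were scarcer among all genes of V. Outside the central 50% of the chromosome lay 66.5% of the V receptors, against 47.5% of all protein-coding genes of V. On the arms of V an IDR summit was at 4 receptor genes, or 3.60% of those there (0.99 to 8.97), with a background of 2.53%. In the centre it was at 3 of 56, or 5.36% (1.12 to 14.9), with a background of 5.49%. Replicated summits were at 13 arm receptors, or 11.7% (6.39 to 19.2), against a background of 6.96%, and at 5 of 56 central receptors, or 8.93% (2.96 to 19.6), against 10.1%. The background of each region lay inside the receptor interval.

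The longer input lists hold background regions as well as peaks. In them receptor promoters held summits more often than other genes, in replicate 2 and the pooled list. In the replicate 2 list 109 of 269 receptor genes, or 40.5% (34.6 to 46.7), had a summit, with a background of 32.7%, and in the pooled list 105, or 39.0% (33.2 to 45.1), had one, with a background of 33.1%. In the replicate 1 list the count was 52, or 19.3% (14.8 to 24.6), with a background of 19.0%. On V the replicate 2 list had summits at 67 of 167 receptor genes, or 40.1% (32.6 to 48), against 27.1% of all genes there. Elsewhere it had them at 42 of 102, or 41.2% (31.5 to 51.4), against 34.6%. In the pooled list the receptor counts were 65 of 167 on V, or 38.9% (31.5 to 46.8), against 27.0%, and 40 of 102 elsewhere, or 39.2%, against 35.2%. In replicate 1 they were 28 of 167 on V, or 16.8%, against 13.8%, and 24 of 102 elsewhere, or 23.5%, against 20.7%. The receptor intervals lie above the background for replicate 2 and, only just, the pooled list over the whole family, and for both lists on V, while those elsewhere hold it.

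Window lengths were alike on V and longer for receptor genes elsewhere. The mean length covered by the windows was 849 bp for receptor genes on V and 844 bp for the other genes there, and 1030 bp and 886 bp on the other chromosomes. Per kb of window, replicate 2 had 0.536 summits at receptor genes on V and 0.373 at the other genes of V, the pooled list had 0.564 and 0.374, and replicate 1 had 0.219 and 0.174. On the other chromosomes these values were 0.554 and 0.467 in replicate 2, 0.535 and 0.471 in the pooled list, and 0.277 and 0.255 in replicate 1. For the IDR list they were 0.0494 and 0.0491 on V, and 0.0574 and 0.0868 elsewhere. In the pooled list 71 of the 105 receptor genes with a summit, or 67.6%, had no replicated one, against 61.7% of all genes with a pooled-list summit. Taking any list, 128 of 269 receptor genes, or 47.6%, had a summit, with a background of 41.4%.

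**Figure D3:**
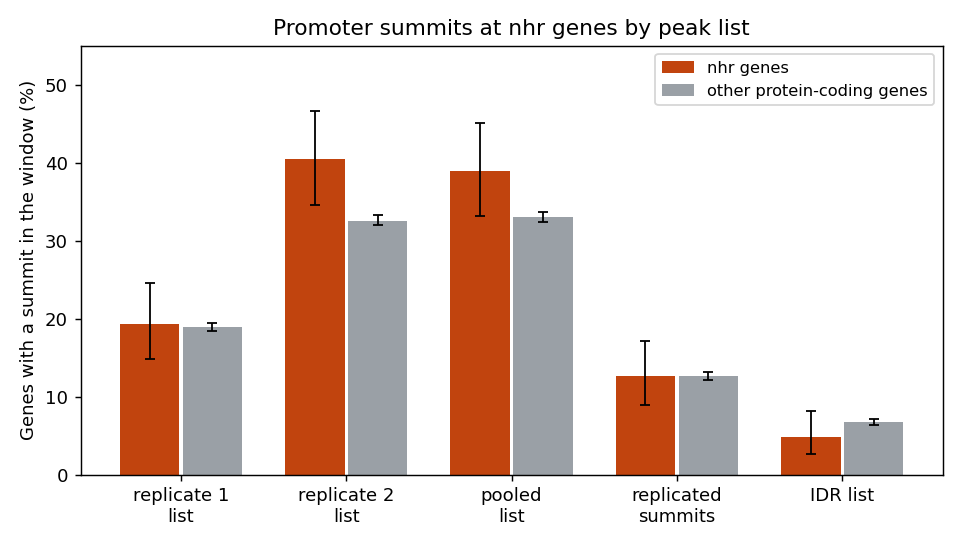
Percentage of receptor genes (dark orange) and of other protein-coding genes (grey) with a summit in the promoter window, by peak list, with 95% Clopper-Pearson intervals as lines. Receptor genes stand at 40.5% in the replicate 2 list beside 32.6% of the others, and at 12.6% beside 12.7% for replicated summits.

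Some receptor peaks on V were at receptor genes that lie close together. On V 117 of the 167 receptor genes, or 70.1%, had another receptor gene within 10 kb, measured between gene midpoints, and elsewhere 34 of 102 had. Of the 34 genes with a replicated summit 18 were on V, against 62.1% of the whole family, so the mix of chromosomes differed. Among these 34, 16, or 47.1%, had any other receptor gene within 10 kb, against 56.1% of the whole family. In 9 cases, or 26.5% of the 34, that neighbourhood held another receptor gene with a replicated summit, a share not computed for other genes. They were nhr-56 with nhr-133, nhr-58 with nhr-132, nhr-182 with nhr-183, and nhr-154 with nhr-136 and nhr-207. Receptor genes without a replicated summit lay between some of them, namely nhr-184 between nhr-133 and nhr-56, nhr-209 between nhr-207 and nhr-154, and nhr-153 between nhr-154 and nhr-136. The pooled signal was 99.8 at nhr-56 and 42.5 at nhr-133, and it was 86.4 at nhr-154, 64.7 at nhr-207 and 54.7 at nhr-136. The nhr-154 summit lay 288 bp beyond the 3′ end of the neighbouring receptor gene nhr-209. At nhr-182 the strongest pooled-list summit, of 70.0, did not have a match within 100 bp in each replicate list, as replicated summits must. The replicated summit of that gene had a signal of 39.0.

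Receptor summits lay on the upstream side of transcript starts in most cases, some of them very close. Of the 34 replicated summits, 28, or 82.4%, were upstream, and 91.3% of the 2534 genes with such a summit had theirs upstream. The median position was −124 bp for receptor summits and −183 bp for all genes. On V 10 of 18 receptor summits lay within 100 bp of a transcript start, and elsewhere 5 of 16 did, while 26.9% of genes with a replicated summit on V and 23.3% of those elsewhere had theirs that close. This distance was chosen after the values were seen, and the difference was not tested. The deposited summit of each of the 13 IDR receptor peaks was the midpoint of the peak, which was 396 bp wide, so distances are no finer than the peak. Of the 13, 11 lay in the window of no other protein-coding gene, or 84.6%, against 66.9% of the promoter summits of the IDR list.

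**Figure D4:**
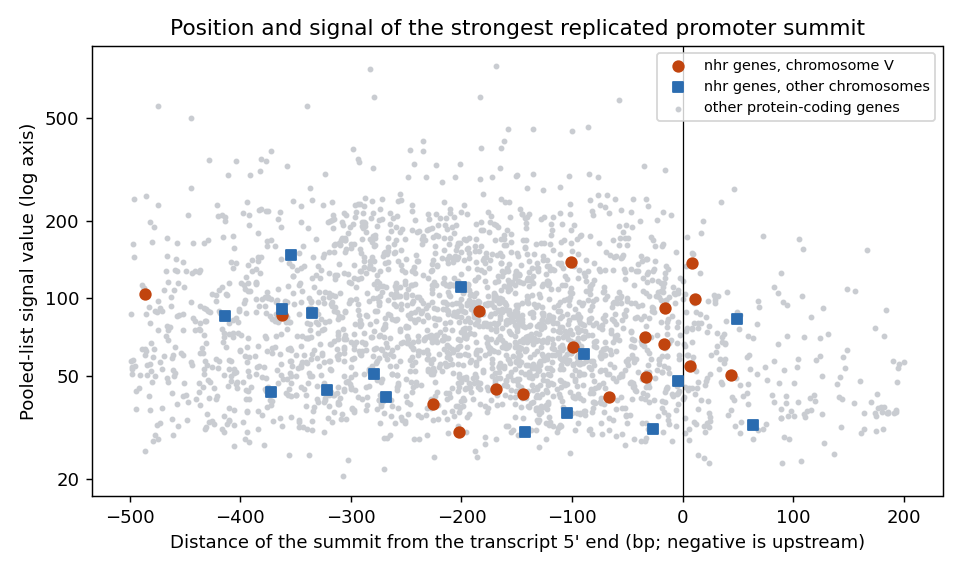
Distance of the strongest replicated summit from the transcript 5′ end (horizontal axis, bp, negative upstream) and its pooled-list signal (vertical log axis), for receptor genes on V (circles), receptor genes elsewhere (squares) and other protein-coding genes (small grey points). Of the 18 receptor genes on V, 10 are within 100 bp of the start, and no receptor gene exceeds a signal of 148.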

How the data were processed

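The data were peak lists of eGFP-tagged NHR-237 ChIP-seq in mixed-stage embryos, 2 biological replicates, on build ce11. Per the deposited text listings, the authors called replicate and pooled lists against a control alignment; which aligner and peak caller they ran, and the cut of the IDR step, the labels and listings do not say. The signal value per peak and, in the IDR list, the −log10 q-value were deposited by the authors. Column 9 of the replicate lists was read as −log10 q from the usual column order of such lists, which is an assumption. Column 9 of the deposited pooled list, a score partly below 0, was not used. The ce10 lists were not used here. No peak end lay beyond a WBcel235 chromosome. Positions are 1-based, and gene models are those of Ensembl release 115.

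Summits (peak start plus offset) were assigned to windows around the 5′ ends of transcripts of protein-coding genes, and a gene could share a summit with another. The single group allows no test between conditions, so shares are given with Clopper-Pearson intervals and differences with Newcombe intervals, beside the share of all genes. The receptor genes, role lists and motifs were chosen with earlier results of these data known. Named genes were nhr-237, all with an IDR summit, the 15 others of highest pooled signal with a replicated summit, list members with one, and other genes sharing an IDR summit; further names were chosen after their values were seen. Alternatives were other windows, peak positions, assignments, thresholds, matching distances and each replicate alone. The scripts were tested on simulated summits. Protein sequences were not used here. Computation used scipy 1.17.1, statsmodels 0.14.6, pandas 2.3.3, numpy 2.4.6 and matplotlib 3.10.9 under Python 3.11.15.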

Additional observations from a re-analysis of the deposited data

How the results depend on the processing

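The count of receptor genes with an IDR summit, 13, was 7 when the window reached only 300 bp before and 100 bp past the start (5.12% of all genes) and 4 in the upper part of the IDR list by signal (3.54% of all genes). It was between 11 and 19 under the other alternatives. With a replicate left out, the 1626 top peaks of the other replicate stood in for the IDR list, so those counts are not of IDR summits. The receptor share was below that of all genes except with each summit given to the nearest 5′ end (19 genes, 7.06% against 6.62%) and with summits in a single window (11 genes, 4.09% against 3.34%). The genes nhr-256 and nhr-34 were called under all of them, and 9 of the 13 had matched summits among the 1626 top peaks of both replicates, 8 of them within the window. The count with a replicated summit, 34, was 22 with a matching distance of 50 bp (9.55% of all genes) and 11 with a −log10 q of at least 1 in both replicates. Matched to a single replicate it was 46 without replicate 2 (16.4% of all genes) and 80 without replicate 1 (23.6%), and between 28 and 39 under the other alternatives, of which summits in a single window gave 32 (11.9% against 7.65% of all genes). At 200 bp, nhr-19, nhr-41, nhr-84 and nhr-212 were added. The differences between chromosome V and the rest stayed within their main intervals, but their sign was not fixed. For IDR summits the difference was 1.03 points with the shorter window. It was 1.09 with the top peaks of replicate 1 in place of the IDR list, and for replicated summits it was 0.54 at 50 bp. No paired analysis was possible because the samples form a single group. Without read counts, depth limits cannot be given.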

Other observations

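IDR summits also lay in or within 2000 bp of 16 receptor genes outside their promoter windows, at 19 positions. The receptor share is 5.95%, against 8.01% of all protein-coding genes. These genes were chosen after their values were seen. The strongest was in an intron of nhr-3 on chromosome X, 1880 bp into the gene, with a signal of 279 and rank 70, above every receptor promoter peak. The same gene had 2 further IDR summits, 938 bp upstream (signal 122) and 361 bp downstream (74.8). Other intronic summits were at nhr-19 on chromosome II (161), nhr-46 on IV, which had 2 (150 and 117), nhr-62 on I (80.01) and nhr-27 on X (79.6). Upstream but beyond the window were summits at nhr-14 (145), a gene with roles in iron handling and pathogen response, nhr-255 (128), nhr-84 (114.2), nhr-8 (94.4), a receptor in sterol metabolism, nhr-10 (84.8) and nhr-280 (77.6). The summit upstream of nhr-8 was in the promoter windows of emc-6, mrpl-1 and mrps-24, that at nhr-61 in the window of W01D2.1 and that at nhr-11 in the window of mppb-1. Beyond the 3′ end lay summits at nhr-102 (124), nhr-61 (115), nhr-11 (93.3), nhr-209 (86.4) and nhr-57 (83.7), and that at nhr-209 was the promoter summit of nhr-154. Of the 19 positions, 6 were on X and 4 on V. Such summits were at 4 of 167 receptor genes on V, or 2.4% (0.656 to 6.02), against 4.49% of protein-coding genes there. Elsewhere they were at 12 of 102, or 11.8% (6.23 to 19.6), against 9.18%, and both intervals hold the background.

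A pair of receptor genes on V, also chosen after their values were seen, had summits in both replicate lists without counting as replicated. They were not the only ones: nhr-180, nhr-201, nhr-204 and nhr-275 on V did so at lower signals, as did some receptor genes elsewhere. At nhr-12 the signal was 42.8 in replicate 1 (rank 1191) and 53.0 in replicate 2 (rank 954), and the pooled list had no summit in the window. At nhr-212 it was 38.9 in replicate 1, 34.3 in replicate 2 and 67.6 in the pooled list, with the replicate 2 summit more than 100 bp from the pooled one.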
